A study of Rattus norvegicus with 6 samples.

Results

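The miR-15/16 seed family is a set of microRNAs, short RNAs that hold back the messenger RNAs they pair with, known for restraining the cell cycle. Its 5 members, rno-miR-15b-5p, rno-miR-16-5p, rno-miR-195-5p, rno-miR-497-5p and rno-miR-322-5p, were taken by exact probe name from the 761 rat miRNA probes of the array, and all 5 names were found. The arrays profiled total RNA of rat oligodendrocyte precursors in culture, which can mature into the glia that wrap axons in myelin. The series holds 3 samples in the normal condition, titled DIV0, and 3 in the differentiated condition, titled DIV3. Both were kept in Raff medium, the labels describe differentiation by a change of growth factors, and no genetic change, strain or age is named. Time in culture and growth condition cannot be told apart. One Cy5-labelled single-colour array was made per sample. Whether the 6 samples are separate cultures is not stated, so every p-value here measures sample-to-sample spread that could be technical.

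A microRNA finds its targets mainly through its seed, bases 2 to 8 counted from the 5′ end, so microRNAs with the same seed can act on overlapping sets of messenger RNAs. In human and mouse cells the miR-15/16 family is known to act on cyclins D1 and E1, on cell-cycle kinases and on the survival factor BCL2, and oligodendrocyte precursors leave the cell cycle when they differentiate. The question for this family is whether its members, made from separate loci, had other levels in the differentiated than in the normal condition.

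The mature sequences of the 5 members, from RefSeq with genome build GRCr8, are shown because the shared seed defines the family and the remaining bases set how far the probes can tell its members apart. Capitals mark the seed, and sequences read 5′ to 3′.
miR-15b-5p: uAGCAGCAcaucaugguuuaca
miR-16-5p: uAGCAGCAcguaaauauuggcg
miR-195-5p: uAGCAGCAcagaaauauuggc
miR-497-5p: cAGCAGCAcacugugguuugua
miR-322-5p: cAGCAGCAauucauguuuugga
All 5 carry the same bases 2 to 8, and of the 685 array miRNAs with a RefSeq mature sequence of that name only these 5 do. Beyond the seed they diverge. Position by position from base 1, miR-16-5p and miR-195-5p are identical at 19 of 21 bases and differ by G10A and U11G, the base of miR-16-5p being written first. The pair miR-16-5p and miR-497-5p is identical at 11 of 22 bases. Probe sequences are not given in the sources used here, and cross-hybridisation between miR-16-5p and miR-195-5p was not tested.

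The members lie at 3 loci of GRCr8. The precursors of miR-15b-5p (chr2:155555197-155555218, plus strand) and miR-16-5p (chr2:155555343-155555364, plus strand) adjoin each other within the span of Smc4, the gene of a condensin subunit that packs chromosomes for cell division. Those of miR-497-5p (chr10:55450172-55450193, plus strand) and miR-195-5p (chr10:55450509-55450529, plus strand) are neighbours on chromosome 10. That of miR-322-5p (chrX:137726198-137726219, minus strand), which is called miR-424 in human, lies in a cluster on the X chromosome with miR-503, miR-351, miR-542 and miR-450.

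Levels are given as log2 intensity after correction against the blank spots of the array, with 50 units added, and after quantile normalization, which gives every array the same set of values. Fold changes on this scale understate the change of dim probes, and levels of different probes are not compared. The DIV0 array of replicate 3 was dim, with the median miRNA spot 5.87 units above the blanks against 25.5 to 44.7 on the other arrays. The arrays of replicate 1 stood apart in another way. On the DIV0 array of replicate 1 miR-219a-5p, which accumulates in differentiating oligodendrocytes, was at 8.53, against 6.34 and 6.88 on the other DIV0 arrays. miR-338-3p and miR-138-5p also had their highest DIV0 level there. Within DIV3, replicate 1 was again highest for miR-219a-5p (10.99 against 10.35 and 10.6) and for miR-338-3p (10.33 against 9.95 and 9.91). The DIV3 levels of miR-138-5p were 9.69, 9.69 and 9.44 for replicates 1, 2 and 3. For miR-322-5p and its cluster, values leaving out the DIV0 array of replicate 1 are also given, a choice made with these levels known.

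No member of the family passed the test over all miRNAs. By limma with Benjamini-Hochberg adjustment over the 695 miRNAs tested, 0 of 5 had an adjusted p under 0.05, where 2.01% of all tested miRNAs did (1.15% higher and 0.863% lower in DIV3). At an unadjusted p under 0.05 there was 1 of 5, miR-15b-5p, where 14.7% of all tested miRNAs reached it (7.48% higher and 7.19% lower). With the replicate number as a block it was again 0 of 5 by adjusted p, against 3.74% of all. The median log2 fold change of the members was -0.01, and that of all tested miRNAs -0.01 as well. All 5 were detected above the blank spots on all 6 arrays. The total RNA of a whole culture was measured, so a lower level cannot be told apart from fewer cells that carry the miRNA.

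**Figure D1:**
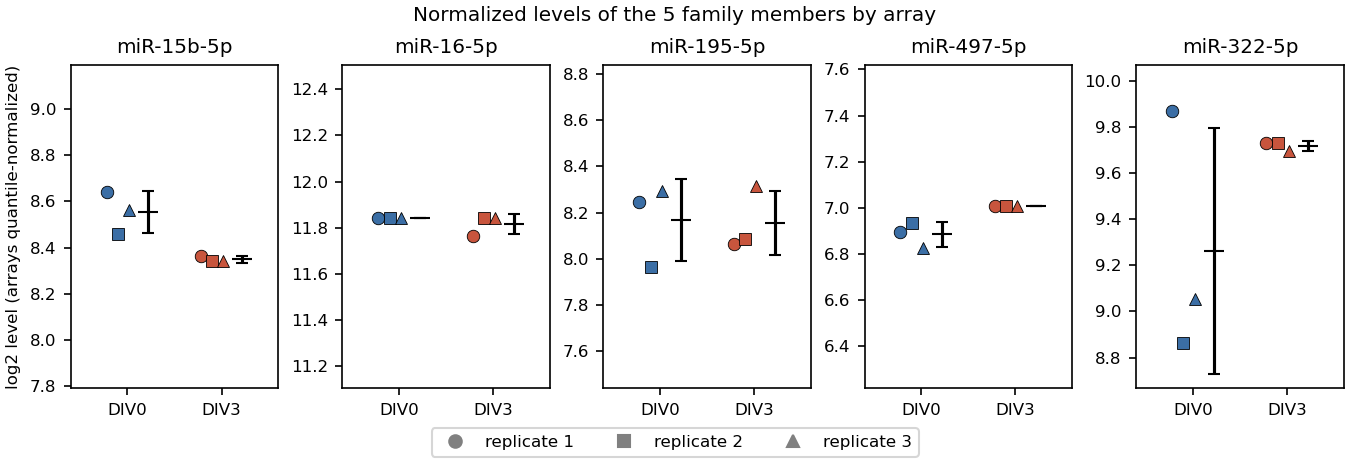
Normalized log2 levels of the 5 members (vertical axes, each spanning the same range) by condition (horizontal axis), with symbols for replicate numbers and a black dash with bars for the mean and SD of 3 arrays. The DIV3 values of miR-15b-5p lie below, and those of miR-497-5p above, all DIV0 values, while the DIV0 values of miR-322-5p spread from 8.86 to 9.87.

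At the chromosome 2 locus, miR-15b-5p had levels of 8.64, 8.46 and 8.56 on the DIV0 arrays and of 8.36, 8.34 and 8.34 on the DIV3 arrays, in the order of replicate number used throughout. The 3 DIV3 values lay below the 3 DIV0 values and the groups did not overlap. This held for DIV3 lower in 8.78% of all tested miRNAs, and for either direction in 18.8%, against 2 of the 5 members. The means were 8.55 ± 0.09 and 8.35 ± 0.01 (SD, n = 3 each), a log2 fold change of -0.20 ± 0.06 (SE, limma adjusted p = 0.21, 95% interval -0.36 to -0.055), lower in 3 of 3 pairs of equal replicate number. The DIV3 spots ranked 90, 91 and 91, and quantile normalization gives spots of equal rank an equal value, so the DIV3 SD is largely set by rank. The SE and the interval pool it with the larger DIV0 SD, from spots that ranked 80, 87 and 83. The deposited values, which follow the spot intensity by 1 straight line per array and are not quantile-normalized, showed no such separation for any of the 5 members, where 12.5% of the miRNAs with a deposited value on all arrays were separated and 2.99% had DIV3 lower. For miR-15b-5p they were 279, 214 and 213 on the DIV0 arrays and 254, 216 and 215 on the DIV3 arrays, lower in 1 of 3 pairs, and the direction of the log2 change turned under median scaling of the arrays, to 0.39 (limma adjusted p = 0.65). With each array left out in turn the log2 fold change stayed between -0.22 and -0.16.

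The other member of that locus, miR-16-5p, is found in most cell types and was bright on every array, 868 to 6426 intensity units above the blanks. Its normalized level was 11.84 on the 3 DIV0 arrays and 11.77, 11.84 and 11.84 on the DIV3 arrays. Its spot ranked 7 among the 761 on 5 of the arrays and 8 on the DIV3 array of replicate 1. For the same reason the DIV0 SD of 0.000345 and the log2 fold change of -0.02 ± 0.05 (limma adjusted p = 0.89, 95% interval -0.15 to 0.10) say little about this member. The deposited values did not have this limit. They were 3258, 2524 and 2527 on the DIV0 arrays and 3386, 2881 and 2832 on the DIV3 arrays, higher in 3 of 3 pairs by 1.04-, 1.14- and 1.12-fold. Their groups overlapped, and the means of 2770 ± 423 and 3033 ± 307 (SD, n = 3 each) differed by less than the spread within DIV0. In limma on these values the log2 fold change was 0.14 (adjusted p = 0.78), against a median of 0.057 for all tested miRNAs. Deposited values were separated with DIV3 higher for 9.53% of miRNAs and with DIV3 lower for 2.99%. How many of all miRNAs moved one way in 3 of 3 pairs was not counted, so such counts are descriptions for every member.

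At the chromosome 10 locus, miR-195-5p, known in mouse for its part in the cell-cycle arrest of heart muscle after birth, had levels of 8.25, 7.96 and 8.29 on the DIV0 arrays and of 8.06, 8.09 and 8.31 on the DIV3 arrays. The groups overlapped, with the lowest value in DIV0 and the highest in DIV3. The log2 fold change was -0.01 ± 0.11 (limma adjusted p = 0.99, 95% interval -0.28 to 0.26). Changes in either direction inside that interval are not excluded with 3 arrays per group. Its deposited values were 205, 135 and 174 on the DIV0 arrays and 200, 175 and 214 on the DIV3 arrays, higher in 2 of 3 pairs.

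Its neighbour miR-497-5p gave a spot of 13.2 units above the blanks on the dim DIV0 array and of 68.2 to 134 units on the others. Levels were 6.90, 6.93 and 6.83 on the DIV0 arrays and 7.01, 7.01 and 7.01 on the DIV3 arrays. The DIV3 values lay above all DIV0 values, as in 10.1% of all tested miRNAs for DIV3 higher. The log2 fold change was 0.13 ± 0.05 (limma adjusted p = 0.35, 95% interval -0.0013 to 0.25), a 1.09-fold difference. The spot ranked 194 on all 3 DIV3 arrays, so that the equal values there are again set by the rank and their spread is not a measured one. In the deposited values miR-497-5p was at 56, 51 and 38 on the DIV0 arrays and 68, 60 and 56 on the DIV3 arrays, higher in 3 of 3 pairs by 1.21-, 1.18- and 1.47-fold, and the groups met at 56. This direction held under every alternative tried, from 0.076 to 0.35 on the log2 scale, and none gave an adjusted p under 0.05.

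**Figure D2:**
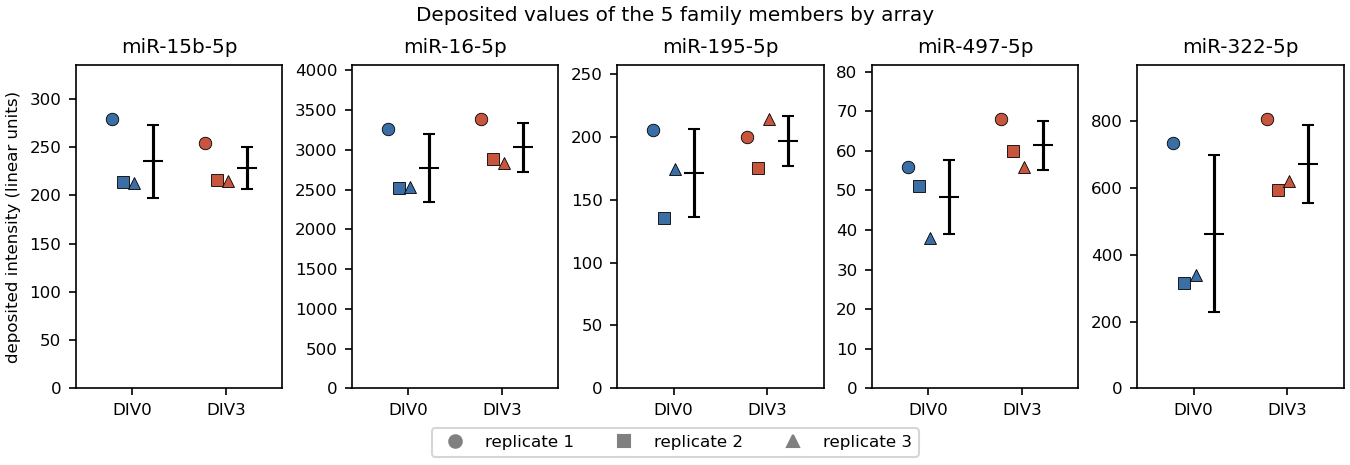
Deposited intensities of the 5 members on a linear scale that starts at 0 (vertical axes) by condition (horizontal axis), with symbols for replicate numbers and a black dash with bars for the mean and SD of 3 arrays. For all 5 members the 2 conditions overlap or meet, and the DIV0 value of miR-322-5p is 735 on replicate 1 against 316 and 340 on the others.

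The X-linked member, miR-322-5p, known with miR-503 for promoting cell-cycle exit in mouse muscle precursors, had the widest spread. Its levels were 9.87, 8.86 and 9.05 on the DIV0 arrays and 9.73, 9.73 and 9.69 on the DIV3 arrays. The DIV0 arrays of replicates 2 and 3 lay below every DIV3 array, and the DIV0 array of replicate 1 lay above them all. The means were 9.26 ± 0.53 and 9.72 ± 0.02 (SD, n = 3 each), a log2 fold change of 0.46 ± 0.25 (limma adjusted p = 0.49, 95% interval -0.14 to 1.05), or 1.37-fold. In the pairs numbered 1, 2 and 3 the log2 difference was -0.14, 0.87 and 0.64. Deposited values of 735, 316 and 340 on the DIV0 arrays and 807, 593 and 620 on the DIV3 arrays gave ratios of 1.10, 1.88 and 1.82 in these pairs, higher in 3 of 3.

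The result for miR-322-5p varied with which arrays were used and with how they were processed. Without the DIV0 array of replicate 1 its log2 fold change was 0.76 ± 0.07 (SE, limma adjusted p = 0.010, 2 DIV0 and 3 DIV3 arrays), and it was then the only member past the threshold, where 1.87% of all miRNAs passed. Its DIV3 spots ranked 48, 48 and 49, so the DIV3 SD of 0.02 behind this SE is largely set by rank, while the deposited DIV3 values ran from 593 to 807. The array left out held the highest DIV0 level of miR-322-5p. Its removal by itself raised the difference and cut the DIV0 spread, so this p-value is no support for a change. Without the DIV0 array of replicate 2 the value was 0.26 and without the dim DIV0 array of replicate 3 it was 0.36, with adjusted p-values of 0.73 and 0.76. With all arrays it was 0.22 with the local background and 1.08 under median scaling (limma adjusted p = 0.73 and 0.59). Median scaling also put miR-16-5p at 0.73, so 1.08 is not particular to miR-322-5p as a rise under that setting. The DIV0 array of replicate 1 is the array on which miR-219a-5p, miR-338-3p and miR-138-5p were highest within DIV0. The summed deposited values of these 3 were 643 there and 147 and 218 on the other DIV0 arrays. On the DIV3 arrays they were 3644 for replicate 1, 2328 for replicate 2 and 2386 for replicate 3. Their part in the level of miR-322-5p was not tested. The arrays of replicates 1 and 2 shared a slide by pair, and the log2 difference with the slide as a fixed block was 0.36 (limma adjusted p = 0.69). Every DIV0 array was placed first on its slide and every DIV3 array second, and placement cannot be told apart from condition.

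The other miRNAs of the X-linked cluster are made from neighbouring precursors. Of 10 on the array 9 were tested, and 0 of 9 passed by limma adjusted p or at an unadjusted p under 0.05. Of all tested miRNAs 2.01% and 14.7% did. Log2 fold changes ranged from -0.22 for miR-503-5p to 0.23 for miR-450a-5p, with a median of 0.14 against -0.01 for all tested miRNAs. They were above 0 for 7 and below 0 for 2, where 324 of all tested miRNAs were above and 371 below. Arms of neighbouring precursors are not separate observations. miR-450a-5p had levels of 7.99, 7.28 and 7.54 on the DIV0 arrays and 7.96, 7.74 and 7.81 on the DIV3 arrays. Replicate 1 was thus again the highest of DIV0, and it was also the highest of DIV3. Counting both arms of miR-322, replicate 1 held the highest DIV0 level for 9 of 11 tested miRNAs of the cluster (81.8%), while it did so for 32.3% of all tested miRNAs. This was counted after the levels had been seen. Within DIV3, replicate 1 was likewise highest for most of the 11, with miR-450b-3p an exception. Its high levels were therefore not particular to DIV0, and the DIV3 share over all miRNAs was not counted. Without the DIV0 array of replicate 1, miR-542-3p, miR-450a-5p and miR-450b-5p stood at 0.39 ± 0.09, 0.43 ± 0.11 and 0.33 ± 0.08 (SE), with limma adjusted p-values of 0.14 each. Of the 11 cluster miRNAs 1 passed, miR-322-5p itself, where 1.87% of all tested miRNAs passed. The array left out held the highest DIV0 level of each miRNA named here. Its removal by itself raised their differences, so these values are no support for a change. The opposite arm of the miR-322 precursor, miR-322-3p, was at 0.05 ± 0.16 with all arrays and 0.18 ± 0.15 without the DIV0 array of replicate 1.

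**Figure D3:**
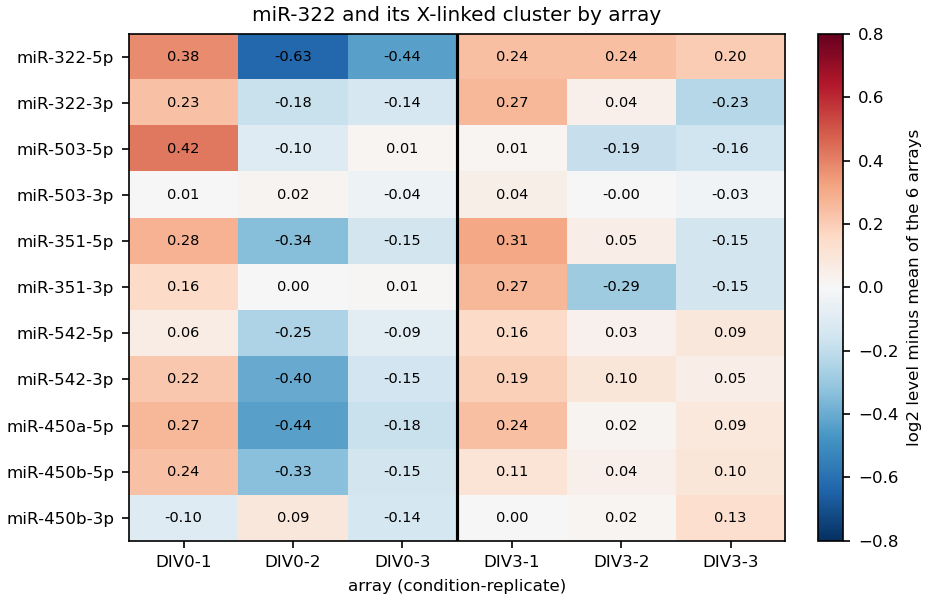
Log2 level minus the mean of the 6 arrays (colour and printed value) for the 11 tested miRNAs of the X-linked cluster (rows) on each array (columns, condition and replicate), with the conditions parted by a line. The DIV0 column of replicate 1 is above the mean for most rows, and those of replicates 2 and 3 are mostly below it. Within DIV3 the column of replicate 1 is also the highest for most rows.

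The opposite arms of the 5 precursors are usually the strand that is discarded. Of these 5, 3 were detected on all 6 arrays, miR-195-3p was detected on 5, and miR-497-3p on none, so that 4 were tested. By limma 0 of 4 passed, whether by adjusted p or by an unadjusted p under 0.05, where 2.01% and 14.7% of all tested miRNAs did. Their log2 fold changes ran from -0.059 to 0.052. For miR-15b-3p, the partner of miR-15b-5p, the value was 0.0040 ± 0.07 (SE) and its deposited values were 26, 18 and 16 on the DIV0 arrays and 22, 20 and 22 on the DIV3 arrays, with overlapping groups.

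3 miRNAs share bases with the family seed without having it at the same place, and are shown to set their changes beside those of the members. In miR-503-5p the first 6 bases of the seed are in place, and in miR-103-3p and miR-107-3p, which are known from the introns of pantothenate kinase genes and from lipid and insulin metabolism, the same 7 bases stand 1 base nearer to the 5′ end. Capitals mark the shared bases, from RefSeq with genome build GRCr8.
miR-503-5p: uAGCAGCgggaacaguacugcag
miR-103-3p: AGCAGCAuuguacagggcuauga
miR-107-3p: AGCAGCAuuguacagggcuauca
The last pair differs by G22C, the base of miR-103-3p being written first, so signal from one on the probe of the other cannot be told apart here. Levels of miR-107-3p were 9.65, 9.60 and 9.75 on the DIV0 arrays and 9.81, 10.02 and 9.87 on the DIV3 arrays, a log2 fold change of 0.23 ± 0.08 (SE, limma adjusted p = 0.23), and that of miR-103-3p was 0.21 ± 0.08 (adjusted p = 0.30). For both, the 3 DIV3 values lay above the 3 DIV0 values, as in 10.1% of all tested miRNAs. In the deposited values both were also separated, with DIV3 over DIV0 ratios of the means of 1.39 and 1.39, where 9.53% of the miRNAs with a deposited value on all arrays had DIV3 above DIV0. miR-503-5p stood at 8.45, 7.93 and 8.04 on the DIV0 arrays and at 8.04, 7.84 and 7.87 on the DIV3 arrays, a log2 fold change of -0.22 ± 0.14 (adjusted p = 0.59), with overlapping groups.

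The array also carries miR-15a-5p, which is known in human and mouse to have the same seed. It is not among the 5 members or the 685 miRNAs matched to a sequence, and it was added after its values had been seen. Its levels were 8.71, 8.59 and 8.67 on the DIV0 arrays and 8.67, 8.86 and 9.01 on the DIV3 arrays, so the groups overlapped through the arrays of replicate 1. The log2 fold change was 0.20 ± 0.10 (SE, limma adjusted p = 0.44, 95% interval -0.035 to 0.43). Its deposited values of 297, 240 and 232 on the DIV0 arrays and 319, 310 and 354 on the DIV3 arrays did not overlap. This held for DIV3 higher in 9.53% of the miRNAs with a deposited value on all arrays. With the local background its log2 fold change turned to -0.69 (limma adjusted p = 0.63). Under the reported setting miR-15a-5p and miR-15b-5p had log2 fold changes of opposite sign, neither past the threshold, and the difference between them was not tested.

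**Figure D4:**
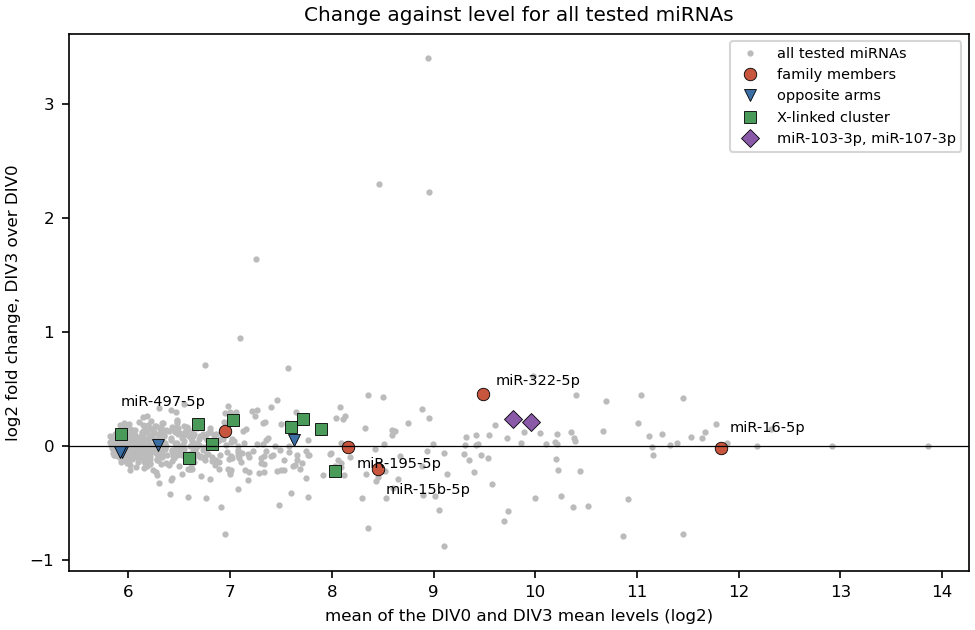
Log2 fold change of DIV3 over DIV0 (vertical axis) against the mean level (horizontal axis, log2) for the tested miRNAs in grey, with the 5 members, their tested opposite arms, the other X-linked cluster miRNAs and 2 seed-related miRNAs marked. The members lie between -0.20 and 0.46, within the spread of the grey points.

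The 3 loci were then set against each other, by the difference between the mean log2 levels of their members on each array. For the chromosome 10 locus minus the chromosome 2 locus this difference was -2.67, -2.70 and -2.64 on the DIV0 arrays and -2.53, -2.54 and -2.43 on the DIV3 arrays. The groups did not overlap, and the shift was 0.17, higher in 3 of 3 pairs. The exact permutation p was 0.1, two-sided and without use of the pairs, the smallest that 3 against 3 arrays allow. After adjustment over the 3 pairs of loci it was 0.3. An exact permutation within the 3 pairs of replicate number gave p = 0.25. The shift turned to -0.11 under median scaling. It includes miR-16-5p, with its near-constant rank, and miR-497-5p, whose rank was the same on all 3 DIV3 arrays. For the X-linked miR-322-5p minus the chromosome 2 locus the shift was 0.57 (exact permutation p = 0.2, adjusted 0.3), with differences of -0.37, -1.29 and -1.15 on the DIV0 arrays and -0.34, -0.36 and -0.40 on the DIV3 arrays, which overlap through replicate 1. For miR-322-5p minus the chromosome 10 locus it was 0.40 (exact permutation p = 0.4, adjusted 0.4). Both shifts of miR-322-5p rested on single arrays. Without the DIV0 array of replicate 1 they were 0.86 and 0.68 (exact permutation p = 0.1 each, the smallest that 2 against 3 arrays allow), and without that of replicate 2 they were 0.38 and 0.24 (exact permutation p = 0.3 and 0.7). With the local background the 3 shifts were 1.36, 1.37 and 0.018, in the order given here. The first 2 subtract the chromosome 2 locus, where miR-16-5p was at -2.28 with that correction. Its spot was dimmer than its surroundings on some arrays, so these 2 values do not show larger differences between loci. The exact test cannot reach a p under 0.05 with this number of arrays, so these p-values do not show that the loci moved alike.

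**Figure D5:**
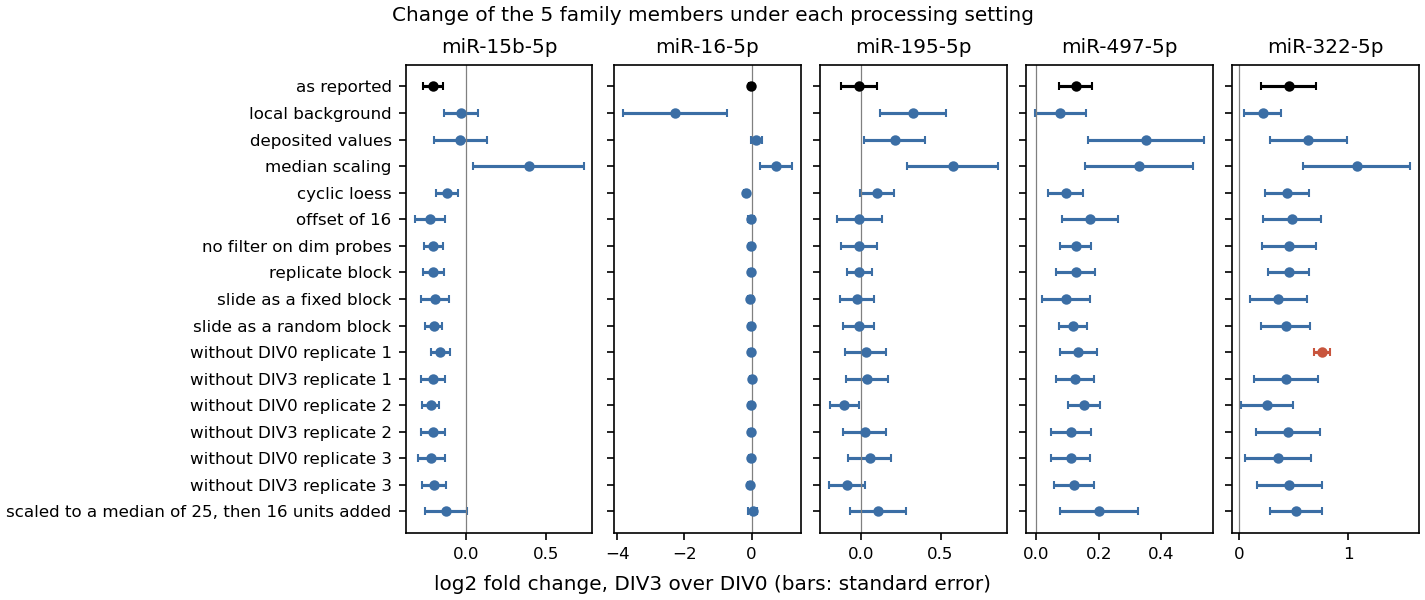
Log2 fold change of DIV3 over DIV0 (horizontal axes, each with its own range, bars for the standard error) for the 5 members under the reported setting (black) and each alternative (rows), with red for an adjusted p under 0.05. The red point is miR-322-5p without the DIV0 array of replicate 1, at 0.76, and miR-16-5p with the local background is at -2.28.

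The correction for local background gave miR-16-5p a log2 fold change of -2.28 (limma adjusted p = 0.70). The area around its spot was brighter than the spot on 3 arrays, the DIV0 array of replicate 3 (1003 against 941 units) and the DIV3 arrays of replicates 2 and 3 (8890 against 6636 and 6994 against 5222 units), and the corrected level was 6.14 on each of them. On the other arrays the corrected level was 11.82 and 9.21 in DIV0 and 8.05 in DIV3.

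Among the tested miRNAs outside the family, 5 had the pattern most like the mean level of the 5 members over the 6 arrays. They were miR-450b-5p (Pearson r = 0.98), miR-106b-5p (0.97), miR-344g (0.97), miR-3068-3p (0.93) and miR-20a-3p (0.93). Of the 688 candidates, 9 had an r above 0.9. The DIV0 SD was 0.53 for miR-322-5p and at most 0.18 for the other members, so the mean largely follows miR-322-5p. The miRNA with the highest r, miR-450b-5p, is of the X-linked cluster of miR-322. All points share 6 arrays and their normalization, and these values are descriptions.

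The labelled cell type was set against marker miRNAs. The 3 markers of differentiating oligodendrocytes rose, miR-219a-5p by 3.40 ± 0.54, miR-338-3p by 2.22 ± 0.23 and miR-138-5p by 2.30 ± 0.26 on the log2 scale (SE, limma adjusted p = 0.036, 0.018 and 0.020). None of the 3 passed in limma on the deposited values (adjusted p = 0.21, 0.17 and 0.17). None passed with the slide as a fixed block, which rests on replicates 1 and 2 (limma adjusted p = 0.12, 0.057 and 0.12). With the local background miR-338-3p was at 0.44 and miR-138-5p at 0.76 (adjusted p = 0.76 and 0.34). Of the 17 markers of other cell types, 0 passed over all miRNAs by limma adjusted p, with 2 at an unadjusted p under 0.05, and 1 microglia and blood marker passed with the replicate block. Summed deposited values of the 5 mural and fibroblast markers were 192 to 360 on the DIV0 and 174 to 403 on the DIV3 arrays, and those of the 4 microglia and blood markers 144 to 425 and 163 to 327. The 3 neuron markers summed to 326 to 368 and 266 to 366, and the 3 muscle markers to 52 to 106 and 52 to 64. The 2 endothelium markers summed to at most 28, and no marker of theirs was detected on all arrays. Their part in the levels of the family was not tested.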

How the data were processed

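MicroRNA was profiled in 6 samples, 3 per condition, grouped by their titles. Per the labels' protocols, extraction used ISOGEN followed by an RNeasy column, and RNA was labelled with an RNA amplification kit. The deposited scanner files hold the median intensity of 3200 spots, scanned at 3 gains joined by straight lines and neither background-corrected nor normalized, per the file headers. The authors' deposited intensity values for the same arrays lay within 0.521 units of a straight line of the spot intensity and have a median of 25 per array. The sources used here do not say how they were made. Members and lists were chosen with earlier results of these data known.

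Blank correction used limma 3.58.1 (R 4.3.3): normexp with the 1664 BLANK spots as negative controls and 50 units added. The log2 values of the 761 miRNA probes were then quantile-normalized, computed from the deposited spot intensities. The 1 miRNA spot with a scanner flag was left out. Tested were 695 miRNAs above the blank mean by 2 SD on at least 3 arrays. The fit was lmFit with eBayes and no trend, p-values are two-sided, Benjamini-Hochberg adjustment ran over all tested miRNAs, and the threshold was 0.05. Loci were compared by exact permutation. Number of arrays and signal over background limit the precision.

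Arrays of equal replicate number deviated together from their group means (r = 0.37, 0.54 and 0.47 across miRNAs), so differences are also given by pairs of equal replicate number. The main fit did not use these pairs, and its SE, intervals and p-values are unpaired. With the replicate number as a block, miR-322-5p was at 0.46 ± 0.19 (SE, limma adjusted p = 0.27). In that fit miR-15b-5p was at -0.20 ± 0.06 (SE, limma adjusted p = 0.17). Named were the members, their opposite arms, the other X-linked cluster miRNAs, miRNAs with the first 6 seed bases at bases 1 to 6 or 2 to 7, and the 5 most alike. Alternatives were the local background, deposited values (log2 of the value plus 1), median scaling, cyclic loess, an offset of 16, no filter, blocks for replicate number and slide, and leaving out each array. The fit was tested on simulated data.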

Additional observations from a re-analysis of the deposited data

How the results depend on the processing

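No member of the family passed the threshold under any of the 16 alternatives except miR-322-5p without the DIV0 array of replicate 1. With 1 array left out its log2 fold change was 0.26 to 0.76 and that of miR-16-5p -0.045 to 0.000235, that of miR-195-5p -0.11 to 0.052. Other reversals were of values not past the threshold. Under median scaling miR-15b-5p was at 0.39, miR-16-5p at 0.73, miR-195-5p at 0.58, miR-503-5p at 0.30, miR-450b-3p at -0.071, miR-344g at -0.035 and the difference of the chromosome 10 locus from the chromosome 2 locus at -0.11. In the deposited values miR-16-5p was at 0.14, miR-195-5p at 0.21 and miR-450b-3p at -0.23. With the local background miR-195-5p was at 0.33, miR-195-3p at 0.0083, miR-503-3p at -0.020, miR-351-5p at -0.020, miR-450b-3p at -0.022, miR-15a-5p at -0.69 and miR-107-3p at -0.25. Under cyclic loess miR-195-5p was at 0.10 and miR-503-3p at -0.0086. With arrays scaled to a median of 25 before 16 units were added, a setting chosen after seeing the data, miR-16-5p was at 0.035 and miR-195-5p at 0.11. With the slide as a fixed or random block miR-15b-3p was at -0.050 or -0.012. With 1 array left out the range was -0.026 to 0.051 for miR-15b-3p, -0.065 to 0.18 for miR-322-3p, -0.010 to 0.027 for miR-503-3p, -0.27 to 0.0043 for miR-351-3p and -0.089 to 0.28 for miR-106b-5p. The cause of these turns was not tested. The count of miRNAs past the threshold, 14, was 1 after local background correction, 0 in the deposited values, 4 under median scaling, 6 with the offset of 16, 0 and 29 with the slide as a fixed or random block, and 0 to 13 with 1 array left out. It was 26 with the replicate block, which changed no other call on a member. The 3 oligodendrocyte markers kept their direction under every alternative. None passed in the deposited values, with the slide as a fixed block, or without any 1 of the DIV3 arrays or the DIV0 array of replicate 3. miR-219a-5p also failed under median scaling, with the offset of 16 and without the DIV0 array of replicate 2 (adjusted p = 0.076, 0.051 and 0.085), and miR-338-3p and miR-138-5p with the local background. Where the count was 0, 56 had an unadjusted p under 0.05 by limma in the deposited values, 87 with the slide block and 72 to 79 with an array left out. Dim probes such as miR-497-5p on the DIV0 array of replicate 3 limit what can be seen.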
